A study of Mus musculus with 18 samples.

Results

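Ier2, Ier3 and Ier5 are the 3 genes described here, out of 23212 genes in the merged annotation of these libraries. They were taken by name as the immediate-early response genes, and the level of a gene in a library is the sum of the FPKM (fragments per kilobase of transcript per 1000000 mapped fragments) of its assembled transcripts. All 3 had an FPKM above 0 in all 18 libraries and were among the 12362 genes tested. The libraries come from mouse embryonic fibroblasts that lack the rela gene and were immortalized. The cells were given back RelA, the main activating subunit of NF-κB, by retrovirus as RelA(wt), RelA(TA2) or RelA(Ser276Ala). RelA(TA2) carries point changes in the second transactivation domain that remove its contact with the TAZ1 domain of the coactivator CBP, and RelA(Ser276Ala) has alanine in place of the serine whose phosphorylation is needed for the contact with the KIX domain. Each line was sampled before treatment (0 h) and after 1 h and 2 h of 5 ng/ml TNFα, with 2 independent replicates for each of the 9 conditions, and every cell in the set lacks endogenous RelA. Whether each line was a pool or 1 clone is not given in the sources used here. The study describes unequal amounts of RelA protein between the lines, with RelA(Ser276Ala) well below RelA(wt).

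The libraries held 25.3 to 31.3 M (units of 1000000) mapped fragments. All 8 fibroblast markers were expressed, with summed levels of 3485 to 4802 FPKM, while, of the markers of other cell types, the epithelial markers Epcam, Cdh1, Krt5 and Krt14, the endothelial markers Pecam1 and Tek and the leukocyte and macrophage markers Ptprc, Itgam and Emr1 were at 0 in all 18 libraries. The other 2 of the 5 macrophage markers and the other 2 of the 4 endothelial markers were detected, and the summed levels of these lists were 7.91 to 25.8 FPKM and 1.12 to 12.3 FPKM. The transcript counted as Rela at 0 h averaged 171 ± 8.04 FPKM for RelA(wt), 180 ± 8.11 FPKM for RelA(Ser276Ala) and 329 ± 20.4 FPKM for RelA(TA2) (SD, n = 2 for each). Rela in RelA(TA2) cells exceeded that in RelA(wt) cells at 0 h by 0.95 on the log2 scale (SE 0.10, limma adjusted p = 0.000626) and at 1 h by 0.91 (SE 0.10, limma adjusted p = 0.000691), so each comparison of these lines below also compares cells with unequal Rela transcript, whose part in the results was not tested. Transcript from the retrovirus and from the deleted gene cannot be told apart in this value. Rela transcript was near equal in RelA(Ser276Ala) and RelA(wt) cells, but the study reports less RelA protein in RelA(Ser276Ala) cells. Comparisons of RelA(Ser276Ala) with RelA(wt) below therefore also compare cells with unequal RelA protein, whose part in the results was not tested.

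Immediate-early genes are switched on within minutes of a stimulus by transcription factors already present in the cell, so their induction needs no new protein synthesis, and their transcripts are usually short-lived. Ier2 and Ier5 belong to one protein family and are induced by growth factors and stress. Ier2 is a nuclear protein linked to cell motility, and Ier5 brings the phosphatase PP2A to the heat-shock factor HSF1. Ier3, also called IEX-1, is unrelated to them in sequence, is a known target of NF-κB, and acts on cell survival and on ERK signalling.

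Ier2 is a gene of 1 exon on the minus strand at chr8:84661331-84662852 of mm10 (ENSMUSG00000053560.4 in GENCODE). Ier3 lies on the plus strand at chr17:35821713-35822911 in 2 exons (ENSMUSG00000003541.6), and Ier5 on the minus strand at chr1:155096367-155099636 in 1 exon (ENSMUSG00000056708.5). None of the assembled transcripts of the 3 genes covered another annotated gene. RefSeq promoter windows on GRCm38.p6, each 300 bases long around the start site, matched for 2 of the 3 genes, Ier3 and Ier5. Both are shown because these genes responded to TNFα in all lines on the fragment scale described below. The part of any motif in these responses was not tested. Capitals mark every match, on either strand, to the motifs searched.

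Ier3, chr17:35821463-35821762, plus strand: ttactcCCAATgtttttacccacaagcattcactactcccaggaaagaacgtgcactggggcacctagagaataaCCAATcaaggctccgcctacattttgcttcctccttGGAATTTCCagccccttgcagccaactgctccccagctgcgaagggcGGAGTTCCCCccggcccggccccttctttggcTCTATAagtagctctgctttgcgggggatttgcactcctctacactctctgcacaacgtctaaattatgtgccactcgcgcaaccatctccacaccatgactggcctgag

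Ier5, chr1:155099587-155099886, minus strand: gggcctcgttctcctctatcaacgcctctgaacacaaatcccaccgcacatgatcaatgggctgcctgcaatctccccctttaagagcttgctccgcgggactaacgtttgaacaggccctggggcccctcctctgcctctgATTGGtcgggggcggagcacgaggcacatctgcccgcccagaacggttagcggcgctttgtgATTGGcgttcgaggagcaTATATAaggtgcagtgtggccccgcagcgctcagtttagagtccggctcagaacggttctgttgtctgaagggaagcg

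The search used the κB consensus, which NF-κB dimers bind, the looser κB form GGNNNTTCC, the CArG box of serum response factor, the CRE (TGACGTCA), the AP-1 form (TGANTCA), the CCAAT box, the heat-shock form (GAANNTTC) and the TATA form (TATANA). The Ier3 window held 1 match to the κB consensus, GGAGTTCCCC at -92 to -83, and 1 to the looser form, GGAATTTCC at -139 to -131, with no overlap between them. The Ier5 window held neither. Of all 32851 promoter windows of the same length, 8.46% held the κB consensus and 18.5% the looser form. CCAAT was matched at 2 places in each window and TATANA at 1 place in each, and these motifs were in 37.4% and 24.7% of all windows. The CArG box (1.63% of all windows), TGACGTCA (1.79%), TGANTCA (7.81%) and GAANNTTC (7.86%) had no match in either window. A match is a run of letters and does not show a bound site.

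Ier2 had the largest rise of the 3 genes in RelA(wt) cells. It was at 8.4 and 9.92 FPKM at 0 h, at 108 and 115 FPKM at 1 h and at 9.35 and 10.4 FPKM at 2 h, so that the 1 h libraries stood far above the others and the 0 h and 2 h libraries overlapped. The rise at 1 h was 3.54 on the log2 scale (SE 0.30, 95% interval 2.86 to 4.21, limma adjusted p = 7.49e-05), and the fall from 1 h to 2 h was -3.43 (SE 0.30, limma adjusted p = 0.000135). The level at 2 h differed from that at 0 h by 0.11 (95% interval -0.57 to 0.78, limma adjusted p = 0.978). Log2 differences of FPKM are differences of log2(FPKM + 0.5), tested by limma over all 12362 genes.

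Ier2 in RelA(TA2) cells started higher and peaked lower. It was at 16.8 and 25.1 FPKM at 0 h, at 39.6 and 47.9 FPKM at 1 h and at 16.1 and 15.3 FPKM at 2 h. The 1 h libraries lay above both other times, with a difference from 0 h of 1.07 (SE 0.30, 95% interval 0.39 to 1.74, limma adjusted p = 0.131) that passed the test without either RelA(Ser276Ala) 1 h library (adjusted p of 0.0221 and 0.0222), and the fall to 2 h was -1.44 (SE 0.30, limma adjusted p = 0.0320). With only the compared groups in the fit the fall had an adjusted p of 0.134. Leaving out 1 of 10 libraries in turn also ended its call, with adjusted p of 0.0508 to 0.163: these were both libraries of RelA(wt) 1 h, RelA(wt) 2 h, RelA(TA2) 1 h, RelA(TA2) 2 h and RelA(Ser276Ala) 0 h.

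In RelA(Ser276Ala) cells Ier2 was at 11.1 and 11.5 FPKM at 0 h, at 85.6 and 39.4 FPKM at 1 h and at 11.7 and 8.76 FPKM at 2 h. The 2 libraries at 1 h were far apart, both above all libraries of the line at 0 h and 2 h. The rise at 1 h was 2.32 (SE 0.30, limma adjusted p = 0.00275) and the fall to 2 h was -2.46 (SE 0.30, limma adjusted p = 0.00189). With only the compared groups in the fit these had adjusted p of 0.215 and 0.153.

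Ordered by mean FPKM, Ier2 was highest in RelA(wt) cells at 1 h, then in RelA(Ser276Ala) and RelA(TA2) cells at 1 h, whose libraries overlapped. Below these came RelA(TA2) cells at 0 h and at 2 h, and the 4 lowest conditions, RelA(wt) and RelA(Ser276Ala) cells at 0 h and 2 h, each overlapped their neighbour in the order. At 1 h Ier2 was lower in RelA(TA2) cells than with RelA(wt) by -1.35 on the log2 scale (SE 0.30, 95% interval -2.02 to -0.67, limma adjusted p = 0.0431). In bulk RNA, fewer responding cells and less RNA per cell cannot be told apart. In RelA(Ser276Ala) cells the difference was -0.93 (SE 0.30, 95% interval -1.61 to -0.26, limma adjusted p = 0.150), and both lines' libraries at 1 h lay below those of RelA(wt). Leaving out 1 of 14 of the 18 libraries ended the RelA(TA2) call, with adjusted p of 0.0504 to 0.187. The libraries whose absence kept it were both of RelA(TA2) 0 h and both of RelA(Ser276Ala) 1 h. Without the higher RelA(Ser276Ala) library at 1 h, replicate 1, the RelA(Ser276Ala) difference was -1.49 (adjusted p = 0.0103). RelA(TA2) and RelA(Ser276Ala) cells at 1 h differed by -0.41 (95% interval -1.09 to 0.26, limma adjusted p = 0.578), and without RelA(Ser276Ala) 1 h replicate 1 by 0.14.

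**Figure D1:**
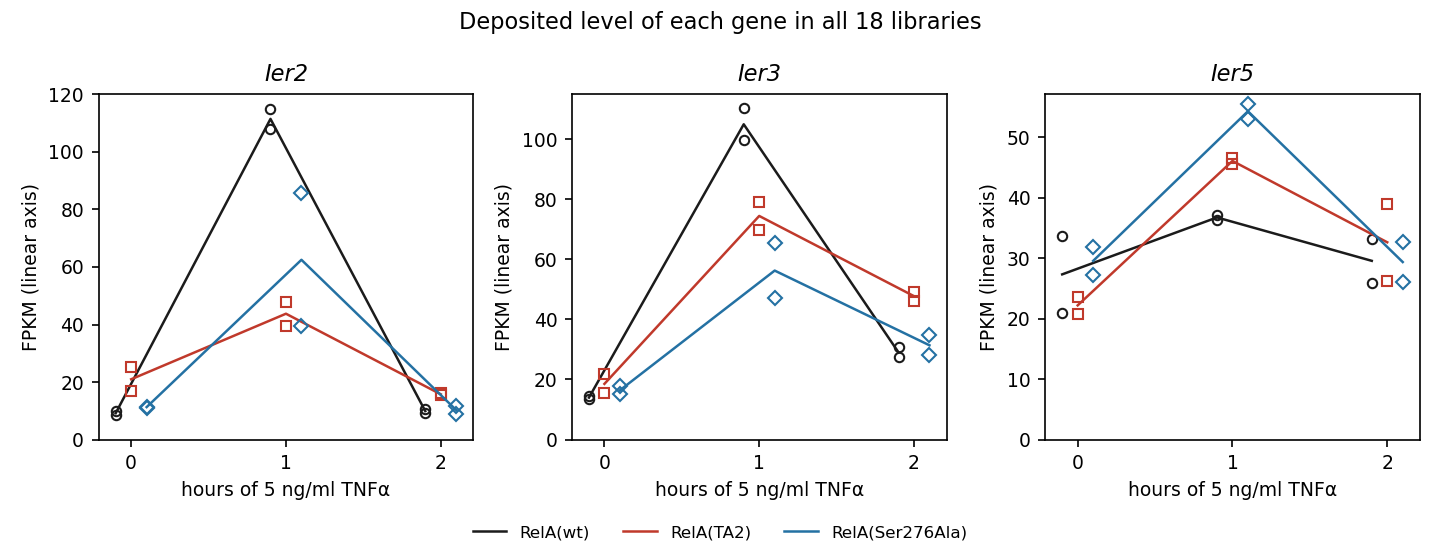
FPKM of Ier2, Ier3 and Ier5 (vertical axes, linear, from 0) against hours of TNFα (lines set slightly apart), with 1 open symbol per library (circles RelA(wt), squares RelA(TA2), diamonds RelA(Ser276Ala)) and a line through the mean of each line's 2 libraries. Ier2 and Ier3 peaked at 1 h with RelA(wt) on top, at 108 and 115 FPKM for Ier2, while for Ier5 the RelA(Ser276Ala) libraries at 1 h were the highest, at 55.5 and 53.1 FPKM.

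Ier3 rose at 1 h in all lines, and at 2 h its libraries still lay above those of 0 h in each line. By FPKM that difference at 2 h passed the test in RelA(wt) and RelA(TA2) cells. In RelA(wt) cells it was at 14.6 and 13.3 FPKM at 0 h, at 110.3 and 99.6 FPKM at 1 h and at 27.3 and 30.7 FPKM at 2 h, with no overlap between any of these pairs. The rise at 1 h was 2.87 on the log2 scale (SE 0.19, 95% interval 2.44 to 3.29, limma adjusted p = 1.13e-05), the fall from 1 h to 2 h was -1.84 (SE 0.19, limma adjusted p = 0.000388), and the level at 2 h was above 0 h by 1.03 (SE 0.19, limma adjusted p = 0.0214). The call at 2 h was lost without either library of RelA(wt) 0 h or of RelA(wt) 2 h, with adjusted p of 0.0576 to 0.109.

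With RelA(TA2), Ier3 was at 15.3 and 21.7 FPKM at 0 h, at 69.9 and 78.9 FPKM at 1 h and at 46.2 and 49.2 FPKM at 2 h. The rise was 1.99 (SE 0.19, limma adjusted p = 0.000241), and at 2 h the level was still 1.36 above 0 h (SE 0.19, limma adjusted p = 0.00342, and 0.109 with only the compared groups in the fit), with all libraries in the order 0 h, 2 h, 1 h. The difference from 1 h to 2 h was -0.63 (95% interval -1.06 to -0.21, limma adjusted p = 0.135).

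With RelA(Ser276Ala), Ier3 was at 17.7 and 15.1 FPKM at 0 h, at 65.5 and 46.9 FPKM at 1 h and at 28.1 and 34.7 FPKM at 2 h. These groups did not overlap, and the 1 h libraries were again the widest pair. The rise at 1 h was 1.73 (SE 0.19, limma adjusted p = 0.000837), the difference from 1 h to 2 h was -0.82 (SE 0.19, limma adjusted p = 0.0570), and the difference from 0 h to 2 h was 0.91 (SE 0.19, limma adjusted p = 0.0579). Leaving out RelA(TA2) 0 h replicate 1 or 2, or RelA(Ser276Ala) 1 h replicate 2, took the difference from 1 h to 2 h past the test (adjusted p of 0.0284 to 0.0323). The difference from 0 h to 2 h passed without either RelA(TA2) 0 h or either RelA(Ser276Ala) 1 h library (adjusted p of 0.0311 to 0.0353).

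At 1 h Ier3 was lower in RelA(Ser276Ala) cells than with RelA(wt) by -0.91 on the log2 scale (SE 0.19, 95% interval -1.34 to -0.49, limma adjusted p = 0.0317). That call was lost without RelA(wt) 1 h replicate 1 (-0.84, adjusted p = 0.140), RelA(wt) 1 h replicate 2 (-0.98, adjusted p = 0.0842) or RelA(Ser276Ala) 1 h replicate 2 (-0.67, adjusted p = 0.138). In RelA(TA2) cells at 1 h the difference from RelA(wt) was -0.49 (95% interval -0.92 to -0.07, limma adjusted p = 0.243), and all 1 h libraries of both lines lay below those of RelA(wt). At 2 h the order turned, and both RelA(TA2) libraries lay above both RelA(wt) libraries by a difference of 0.71 (SE 0.19, 95% interval 0.29 to 1.13, limma adjusted p = 0.0801), which passed the test without RelA(TA2) 0 h replicate 1 (adjusted p = 0.0453) or replicate 2 (adjusted p = 0.0454). Before TNFα the mutant lines differed from RelA(wt) by 0.38 for RelA(TA2) (95% interval -0.05 to 0.8, limma adjusted p = 0.370) and by 0.22 for RelA(Ser276Ala) (95% interval -0.20 to 0.65, limma adjusted p = 0.711). The order of the means from the top was RelA(wt), RelA(TA2) and RelA(Ser276Ala) at 1 h, then the 2 h and the 0 h conditions, and RelA(Ser276Ala) at 1 h overlapped RelA(TA2) at 2 h.

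Ier5 had the highest mean FPKM of the 3 genes at 0 h in each line and, in RelA(wt) cells, the smallest log2 difference at 1 h. In RelA(wt) cells it was at 33.7 and 20.9 FPKM at 0 h, at 37.1 and 36.4 FPKM at 1 h and at 33.2 and 25.9 FPKM at 2 h. The 1 h libraries lay above all others of the line, but the 0 h pair was wide, and the difference at 1 h was 0.46 on the log2 scale (95% interval -0.06 to 0.98, limma adjusted p = 0.567). With RelA(TA2), Ier5 was at 23.6 and 20.8 FPKM at 0 h, at 46.5 and 45.7 FPKM at 1 h and at 26.3 and 39.0 FPKM at 2 h, with a difference at 1 h of 1.04 (SE 0.23, limma adjusted p = 0.0523) that passed the test without either RelA(wt) 0 h library (adjusted p of 0.0244 and 0.0245) or either RelA(TA2) 2 h library (adjusted p of 0.0383 for both). With RelA(Ser276Ala) it was at 27.2 and 31.9 FPKM at 0 h, at 55.5 and 53.1 FPKM at 1 h and at 32.7 and 26.0 FPKM at 2 h, with a difference at 1 h of 0.87 (SE 0.23, limma adjusted p = 0.139). In RelA(wt) and RelA(Ser276Ala) cells, and in RelA(TA2) cells too, the 1 h libraries lay above those of 0 h and 2 h of the same line. Ordered by mean FPKM, the 7 lowest conditions, up to RelA(wt) at 1 h, each overlapped their neighbour.

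The FPKM of Ier5 depended on how the gene was assembled. In 14 libraries it was 1 transcript, and in 4 it was assembled in 2 pieces, each divided by its own shorter length before the sum: RelA(wt) 0 h replicate 1, RelA(wt) 2 h replicate 1, RelA(TA2) 2 h replicate 2 and RelA(Ser276Ala) 0 h replicate 2. In each of these 4 libraries the FPKM was the higher of its pair. The fragments behind each value were therefore recovered from the FPKM, its confidence limit and the transcript length, and were expressed per 1000000 fragments in genes (FPM). By fragments the 0 h pair of RelA(wt) was at 70.0 and 70.3 FPM, against 33.7 and 20.9 FPKM. Ier2 and Ier3 were 1 transcript in all 18 libraries. Ier2 had 289 to 5104 fragments in a library, Ier3 339 to 3113 and Ier5 1628 to 4726.

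On the fragment scale Ier5 rose at 1 h in all 3 lines. In RelA(wt) cells it was at 126 and 123 FPM at 1 h and at 75.5 and 83.8 at 2 h. The rise was 0.82 on the log2 scale (SE 0.13, 95% interval 0.54 to 1.10, limma adjusted p = 0.00222), and the fall to 2 h was -0.64 (SE 0.13, limma adjusted p = 0.00384). For RelA(TA2), Ier5 was at 77.1 and 69.3 FPM at 0 h, at 158 and 162 at 1 h and at 86.4 and 99.9 at 2 h, with a rise of 1.12 (SE 0.13, limma adjusted p = 0.000217) and a fall of -0.78 (SE 0.13, limma adjusted p = 0.00152). For RelA(Ser276Ala) it was at 89.4 and 71.2 at 0 h, at 184 and 179.6 at 1 h and at 114 and 87.4 at 2 h, with a rise of 1.18 (SE 0.13, limma adjusted p = 0.000189) and a fall of -0.86 (SE 0.13, limma adjusted p = 0.000996). The libraries at 1 h lay above all others of their line.

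By mean level at 1 h RelA(wt) was the lowest line for Ier5, whereas it was the highest for Ier2 and Ier3. Ier5 in RelA(Ser276Ala) cells at 1 h was above RelA(wt) by 0.55 on the fragment scale (SE 0.13, 95% interval 0.26 to 0.83, limma adjusted p = 0.0113), and by 0.56 on the FPKM scale (95% interval 0.04 to 1.08, limma adjusted p = 0.273). In RelA(TA2) cells the differences were 0.36 by fragments (95% interval 0.08 to 0.64, limma adjusted p = 0.0692) and 0.32 by FPKM (95% interval -0.20 to 0.84, limma adjusted p = 0.596). RelA(TA2) and RelA(Ser276Ala) cells differed in Ier5 at 1 h by -0.18 by fragments (95% interval -0.47 to 0.10, limma adjusted p = 0.344). No library of one line at 1 h overlapped another line's.

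**Figure D2:**
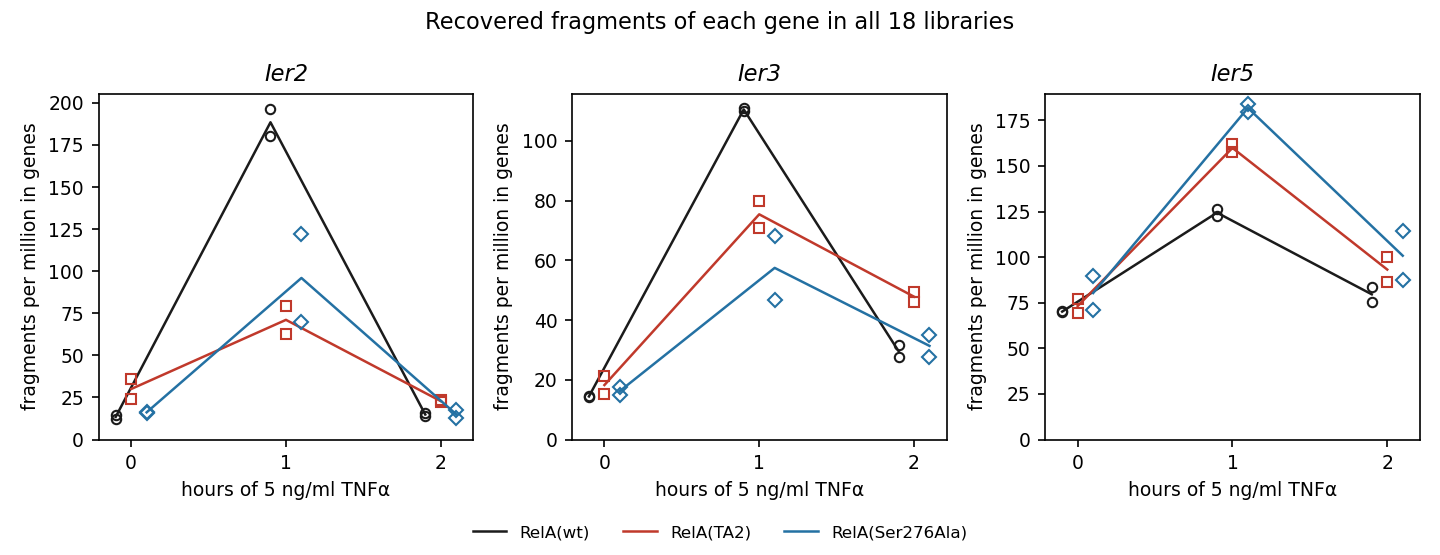
Recovered fragments per 1000000 fragments in genes (FPM) (vertical axes, linear, from 0) for Ier2, Ier3 and Ier5 against hours of TNFα, with 1 open symbol per library and lines through the means of the 2 libraries. On this scale the RelA(wt) pair of Ier5 at 0 h is tight, at 70.0 and 70.3. At 1 h the Ier5 means stand in the order RelA(wt), RelA(TA2), RelA(Ser276Ala) from the bottom.

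The fragment scale had the smaller spread between replicates over all genes, with a median SD of 0.105 on the log2 scale against 0.299 for FPKM. It changed several calls of Ier2 and Ier3, and the called differences kept their direction. The uncalled Ier2 difference of RelA(Ser276Ala) from RelA(wt) at 2 h went from 0.037 by FPKM to -0.0011 by fragments. For Ier2 the difference at 1 h in RelA(TA2) cells became a rise of 1.25 (SE 0.25, limma adjusted p = 0.00858). The higher Ier2 level of RelA(TA2) cells before TNFα, 1.13 above RelA(wt) by FPKM (95% interval 0.45 to 1.8, limma adjusted p = 0.0809, and 0.0135 without either RelA(Ser276Ala) 1 h library), was 1.10 by fragments (limma adjusted p = 0.00909). At 1 h Ier2 was lower than in RelA(wt) cells by -1.41 in RelA(TA2) cells (limma adjusted p = 0.00268) and by -1.02 in RelA(Ser276Ala) cells (limma adjusted p = 0.0140). For Ier3 the differences from RelA(wt) at 1 h by fragments were -0.96 in RelA(Ser276Ala) cells (limma adjusted p = 0.00477) and -0.55 in RelA(TA2) cells (95% interval -0.97 to -0.13, limma adjusted p = 0.0628). At 2 h Ier3 was higher in RelA(TA2) cells than with RelA(wt) by 0.68 (limma adjusted p = 0.0253), and in RelA(Ser276Ala) cells the difference of Ier3 from 0 h to 2 h was 0.92 (limma adjusted p = 0.0126). By fragments Ier3 also fell from 1 h to 2 h in RelA(TA2) cells (-0.65, limma adjusted p = 0.0331) and in RelA(Ser276Ala) cells (-0.85, limma adjusted p = 0.0110).

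**Figure D3:**
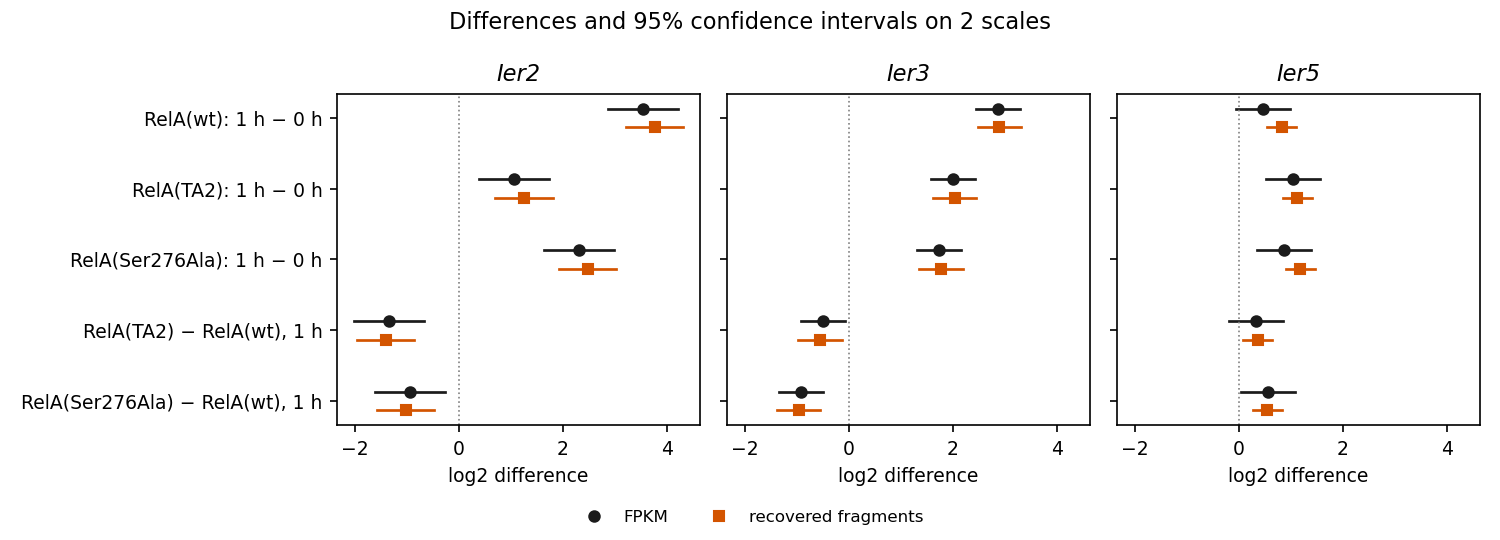
Log2 differences (horizontal axes) of Ier2, Ier3 and Ier5 between 1 h and 0 h in each line and between each mutant line and RelA(wt) at 1 h, with 95% confidence intervals from limma, as black circles for FPKM and orange squares for recovered fragments. Ier2 and Ier3 lie right of 0 for all rises and left of 0 for both mutant lines at 1 h, and the Ier5 intervals by fragments are narrower than those by FPKM, with 0.82 by fragments against 0.46 by FPKM for the rise in RelA(wt) cells.

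The number of members called reads against the share of all tested genes called in the same direction. By FPKM 2 of the 3 genes rose at 1 h in RelA(wt) cells, where 1.03% of all genes did, 1 of 3 in RelA(TA2) cells against 1.12%, and 2 of 3 in RelA(Ser276Ala) cells against 0.93%. From 1 h to 2 h 2 of 3 fell in RelA(wt) cells against 1.97% of all genes, 1 of 3 in RelA(TA2) cells against 1.25% and 1 of 3 in RelA(Ser276Ala) cells against 0.987%. At 2 h against 0 h only Ier3 was higher, in RelA(wt) cells (1.4% of all genes) and RelA(TA2) cells (1.89%), and none of the 3 in RelA(Ser276Ala) cells (0.696%). By fragments all 3 rose at 1 h in each line, against 3.43%, 3.58% and 2.21% of 11882 genes, with the lines in the same order. All 3 fell from 1 h to 2 h by fragments, against 13.8%, 11.1% and 8.79%, and 1 of 3, Ier3, was higher at 2 h than at 0 h, against 6.29%, 9.0% and 4.58%.

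Between lines, 1 of 3 genes was lower in RelA(TA2) cells than with RelA(wt) at 1 h by FPKM (1.68% of all genes) and 1 of 3 by fragments (11.3%). In RelA(Ser276Ala) cells these were 1 of 3 by FPKM (1.47%) and 2 of 3 by fragments (10.6%), while 1 of 3, Ier5, was higher by fragments (11.3%). In RelA(TA2) cells no member was higher than in RelA(wt) cells by FPKM at 0 h (2.1% of all genes) or at 2 h (1.51%), and by fragments 1 of 3 was at 0 h (12.5%) and 1 of 3 at 2 h (11.1%). All comparisons of the mutant lines with RelA(wt) at a time share the RelA(wt) libraries.

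The response itself was compared between lines as the change from 0 h to 1 h, and for Ier2 this change was smaller in RelA(TA2) cells than with RelA(wt) by -2.47 on the log2 scale (SE 0.43, 95% interval -3.43 to -1.52, limma adjusted p = 0.0489), and by -2.51 by fragments (limma adjusted p = 0.00804). Of all genes, 0.162% by FPKM and 1.2% by fragments had a change lower in that comparison. Leaving out 1 of 15 of the 18 libraries ended the FPKM call, with adjusted p of 0.0519 to 0.0929, and only without RelA(TA2) 0 h replicate 1 or either RelA(Ser276Ala) 1 h library did it stay. For RelA(Ser276Ala) cells the Ier2 difference in change was -1.22 (95% interval -2.18 to -0.27, limma adjusted p = 0.776), and without RelA(Ser276Ala) 1 h replicate 1 it was -1.78 (adjusted p = 0.0308). For Ier3 the differences in change were -0.87 in RelA(TA2) cells (95% interval -1.47 to -0.27, limma adjusted p = 0.334) and -1.13 in RelA(Ser276Ala) cells (95% interval -1.73 to -0.54, limma adjusted p = 0.292), where 0.129% of all genes had a lower change. For Ier5 they were 0.58 (95% interval -0.15 to 1.31, limma adjusted p = 0.684) and 0.41 (95% interval -0.32 to 1.14, limma adjusted p = 1.0). By fragments the Ier5 values were 0.30 (95% interval -0.10 to 0.70, limma adjusted p = 0.439) and 0.36 (95% interval -0.04 to 0.76), neither called. The higher Ier5 level called by fragments in RelA(Ser276Ala) cells at 1 h was thus not called as a larger change.

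The members also differed in how much of the mean rise at 1 h was left at 2 h. For Ier2 0.721% of the rise in FPKM was left in RelA(wt) cells, and in RelA(TA2) and RelA(Ser276Ala) cells the mean at 2 h lay below that at 0 h. For Ier3 16.5% of the rise was left in RelA(wt) cells, 52.2% in RelA(TA2) cells and 37.6% in RelA(Ser276Ala) cells, and by fragments these shares were 15.8%, 51.8% and 36.7%. For Ier5 the shares by FPKM were 23.8% in RelA(wt) cells, 43.7% in RelA(TA2) cells and -0.788% in RelA(Ser276Ala) cells, and by fragments they were 17.4%, 23.1% and 20.2%. The change from 1 h to 2 h was compared between lines after these values were seen. The difference between RelA(TA2) and RelA(wt) cells in that change was 1.2 for Ier3 (95% interval 0.61 to 1.8, limma adjusted p = 0.178) and 1.99 for Ier2 (95% interval 1.04 to 2.94, limma adjusted p = 0.154), where 0.0971% of all genes had a higher change. By fragments it was 1.24 for Ier3 (limma adjusted p = 0.115) and 2.01 for Ier2 (limma adjusted p = 0.0492, against 0.177% of all genes). By FPKM the Ier2 difference passed without either RelA(Ser276Ala) 1 h library (adjusted p of 0.0165 and 0.0167). For RelA(Ser276Ala) cells these differences were 1.02 for Ier3 (limma adjusted p = 0.316) and 0.97 for Ier2 (limma adjusted p = 0.784).

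**Figure D4:**
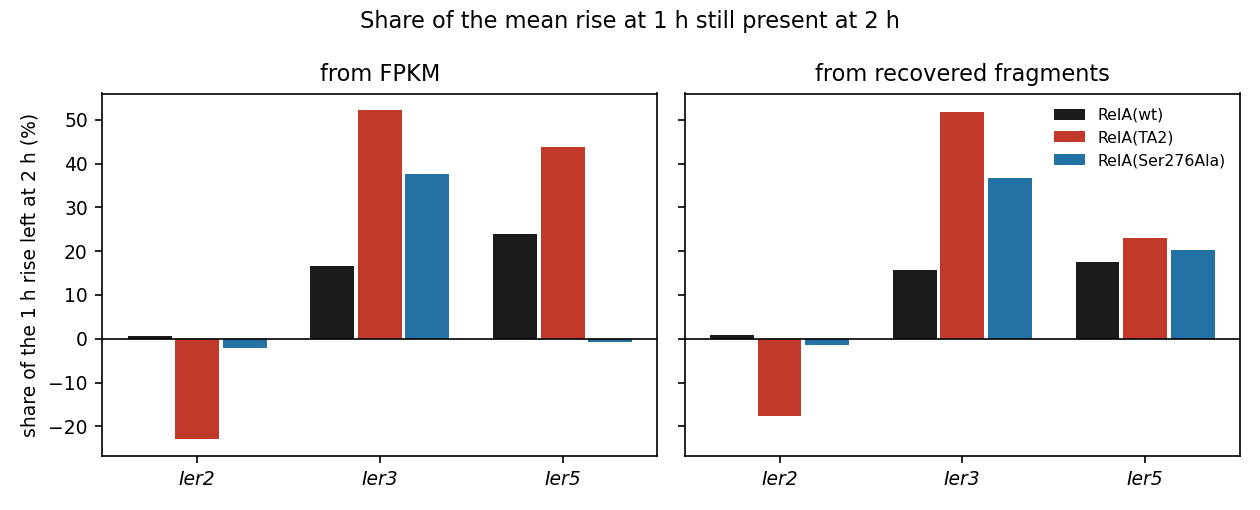
Share of the mean rise at 1 h that was left at 2 h, in percent (vertical axis, linear, bars from 0), for each gene and line from FPKM (left) and from recovered fragments (right). The Ier3 bars are highest in RelA(TA2) cells, at 52.2% and 51.8%, the Ier2 bars lie at or below 0.81%, and the Ier5 bars differ between the 2 scales.

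The assembled Ier2 transcript reached further upstream at 1 h. It extended more than 50 bases beyond the annotated 5′ end in 5 of the 6 libraries at 1 h, by 191 and 202 bases in RelA(wt), 90 and 145 bases in RelA(TA2) and 281 bases in RelA(Ser276Ala) replicate 2. The exception at 1 h was RelA(Ser276Ala) replicate 1, with 3137 fragments, which ended 11 bases short. Of the 12 libraries at 0 h and 2 h 1 did so, RelA(wt) 2 h replicate 1 with 52 bases. The number of Ier2 fragments moved with time too, from 289 to 924 at 0 h and 2 h to between 1594 and 5104 at 1 h, and its part in the reach was not tested. In RelA(Ser276Ala) cells at 1 h the library with the longer transcript was the one with the lower FPKM, at 39.4 against 85.6. That library also had fewer Ier2 fragments, at 69.8 against 122.2 FPM.

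**Figure D5:**
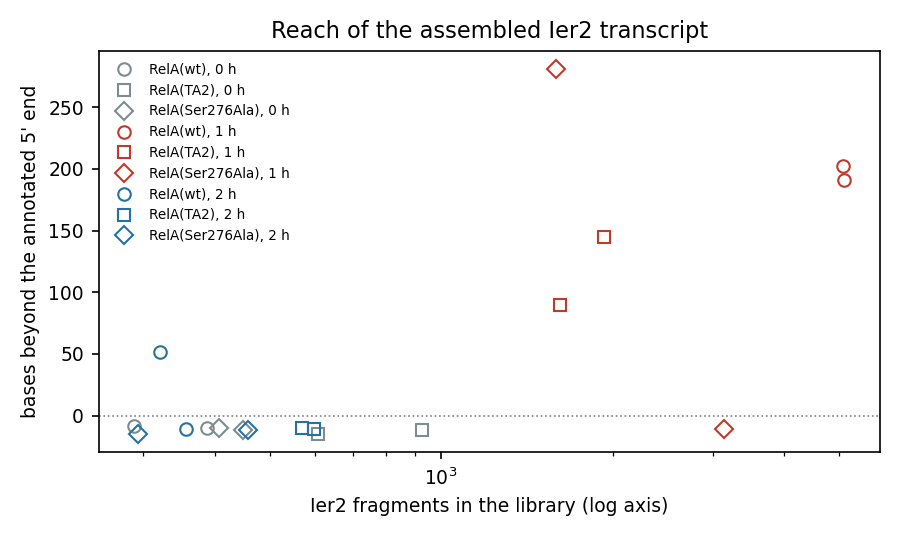
Bases by which the assembled Ier2 transcript extends beyond the annotated 5′ end (vertical axis, linear, negative where it ends short) against the Ier2 fragments of the library (horizontal axis, log), with colour for time and symbol shape for line. Of the 6 libraries at 1 h 5 lie between 90 and 281 bases, and the sixth lies at -11 bases with 3137 fragments.

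None of the 4 tested neighbours of the members passed the test at 1 h in RelA(wt) cells. Nacc1, the nearest gene upstream of Ier2 at 7626 bases, was at 39.8 to 53.5 FPKM over the libraries and differed at 1 h in RelA(wt) cells by -0.12 (SE 0.09, limma adjusted p = 0.753), and Cacna1a on its other side, at up to 5.93 FPKM, by -0.62 (SE 0.32, limma adjusted p = 0.575). Flot1 starts 445 bases after the end of Ier3 on the same strand, was at 63.8 to 153.0 FPKM and differed by 0.08 (SE 0.29, limma adjusted p = 1.0). Mr1, upstream of Ier5 by 28241 bases, was at 3.63 to 7.65 FPKM and differed by 0.08 (SE 0.17, limma adjusted p = 1.0). The other neighbours, 4833427F10Rik of Ier3 and Cacna1e of Ier5, were listed at 0 in all libraries.

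The genes whose pattern was most like each member were sought among 10533 genes with an FPKM above 0 in all libraries, by Pearson's r of log2 FPKM over the 18 libraries, which share the time course and the lines. For Ier2 they were the zinc-finger factors Klf2 (r = 0.972) and Klf6 (r = 0.950), Pramef8 (r = 0.956), the mRNA-destabilizing protein Zfp36 (r = 0.952) and the ERK pathway inhibitor Spry2 (r = 0.944). Klf2 was picked for its likeness to Ier2 over these same libraries, so a shared shape follows from the choice. Before TNFα, Klf2 had 27.1 and 36.1 FPKM with RelA(TA2) and 18.7 and 20.0 FPKM with RelA(wt). The 1 h values were 49.5 and 62.3 FPKM with RelA(TA2) and 88.4 and 99.8 FPKM with RelA(wt). This 1 h difference was -0.75 by FPKM (limma adjusted p = 0.067) and -0.77 by fragments (limma adjusted p = 0.0363). For Ier3 they were the G-protein regulator Rgs16 (r = 0.959), the NF-κB inhibitors Nfkbia (r = 0.955) and Tnfaip3 (r = 0.949), Phlda1 (r = 0.933) and the EGF-family ligand Ereg (r = 0.929). Nfkbia was chosen in the same way. At 2 h both its RelA(TA2) libraries, at 75.4 and 87.5 FPKM, lay above those of RelA(wt), at 41.9 and 33.7 FPKM. Both RelA(Ser276Ala) libraries did too, at 58.4 and 67.5 FPKM. For Ier3 the difference of RelA(Ser276Ala) from RelA(wt) at 2 h was 0.11 (limma adjusted p = 0.869). For Ier5 the highest values were smaller, with the ERK phosphatase Dusp5 (r = 0.854), Gadd45g (r = 0.831), the AP-1 subunit Fosb (r = 0.821), Phlda1 (r = 0.801) and Stk17b (r = 0.799). By fragments the r of Fosb with Ier5 was 0.959. Among the members themselves r was 0.822 for Ier2 with Ier3, 0.598 for Ier2 with Ier5 and 0.659 for Ier3 with Ier5.

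Of 25 other immediate-early regulators, all tested, 13 rose at 1 h in RelA(wt) cells by FPKM (1.03% of all genes) and none fell (0.574%). In RelA(TA2) cells 13 rose (1.12% of all genes) and in RelA(Ser276Ala) cells 15 (0.93%). The median log2 difference of the 25 in RelA(wt) cells was 1.77, against -0.01 over all genes tested. Ier2 and Ier3 thus rose by more than the median of the list and Ier5 by less. By fragments 19 of the 25 rose in RelA(wt) cells (3.43% of all genes) and 1 fell (3.48%). The 1 that fell was Ier5l, a family member of Ier5 named after its values were seen (-1.28, limma adjusted p = 0.0225). Egr1, a zinc-finger factor, went from 13.5 and 15.5 FPKM to 597 and 699.9 FPKM in RelA(wt) cells and back to 6.23 and 6.98 FPKM at 2 h. Btg2, which restrains proliferation, went from 16.5 and 16.9 FPKM to 175 and 182 FPKM, and at 1 h it was lower in RelA(TA2) cells by -1.10 (limma adjusted p = 0.00286) and in RelA(Ser276Ala) cells by -0.91 (limma adjusted p = 0.0105). Klf6 went from 31.8 and 32.0 FPKM to 184 and 192 FPKM. Myc, a growth regulator, went from 17.8 and 19.7 FPKM to 91.0 and 78.4 FPKM. Set against RelA(wt) at 1 h by FPKM, 5 of the 25 were lower in RelA(TA2) cells (1.68% of all genes) and 1 was higher (1.21%), Nr4a2, named after its values were seen (0.59, limma adjusted p = 0.0354), and 3 were lower in RelA(Ser276Ala) cells (1.47%). By fragments 8 were lower (11.3%) and 4 higher (8.59%) in RelA(TA2) cells, and 7 lower (10.6%) and 3 higher (11.3%) in RelA(Ser276Ala) cells.

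Of 18 NF-κB targets and feedback genes, all tested, 3 passed the filter on low values only through RelA(wt) at 1 h, where they were high: Cxcl2, Csf2 and Tnf, named after their values were seen. Of the other 15 genes 8 rose at 1 h in RelA(wt) cells by FPKM (1.03% of all genes). The median log2 difference of the 15 was 2.11, against -0.01 over all genes tested. In RelA(TA2) cells 7 genes of the list rose (1.12% of all genes) and in RelA(Ser276Ala) cells 7 (0.93%), none of them Cxcl2, Csf2 or Tnf. By fragments 12 of the 15 rose in RelA(wt) cells (3.43% of all genes) and 1 fell (3.48%). The 1 that fell was Nfkb1 (-0.32, limma adjusted p = 0.0380), named after its values were seen. The chemokines Cxcl1 and Ccl20 were listed at 0 at 0 h in all lines and reached 173 and 200.2 FPKM, and 42.6 and 36.0 FPKM, in RelA(wt) cells at 1 h. Tnfaip3, an inhibitor of NF-κB signalling, went from 7.18 and 3.29 FPKM to 283 and 274 FPKM. Irf1, an interferon response factor, differed from RelA(wt) at 1 h by -1.0 in RelA(TA2) cells (limma adjusted p = 0.0159) and by -2.55 in RelA(Ser276Ala) cells (limma adjusted p = 3.43e-05), beside -0.49 and -0.91 for Ier3.

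The partners of the members were looked at as lists. Of all genes tested, 1.03% rose and 0.574% fell at 1 h in RelA(wt) cells by FPKM, and 3.43% rose and 3.48% fell by fragments. Of 13 PP2A subunits 11 were tested and by limma on FPKM 0 changed at 1 h in RelA(wt) cells, with 0 at an unadjusted p under 0.05, and 0 by fragments, with 3 at an unadjusted p under 0.05. Without RelA(wt) 1 h replicate 2 the FPKM count was 1. Ppp2r2a, a B55 regulatory subunit, was at 28.7 and 27.8 FPKM at 0 h and at 25.3 and 26.0 FPKM at 1 h, and Ppp2r5d, a B56 subunit, at 36.4 and 35.1 FPKM and then at 73.2 and 33.6 FPKM. Of 13 heat-shock genes and HSF1 targets 12 were tested and 0 changed in RelA(wt) cells by limma on FPKM, with 2 at an unadjusted p under 0.05. Hspb1, a small heat-shock protein, differed by 0.69 (limma adjusted p = 0.156), and Dnajb1, an Hsp70 partner, by 0.39 by FPKM (limma adjusted p = 0.163) and by 0.69 by fragments (limma adjusted p = 0.000148), the 1 call of the list on that scale. Of 12 ERK and Bcl2 family genes, all tested, 2 rose in RelA(wt) cells by FPKM. These were Pmaip1, which promotes apoptosis, from 31.2 and 28.7 to 58.6 and 57.4 FPKM (0.94, limma adjusted p = 0.000174), and Bcl2l1, which encodes the survival protein Bcl-xL, from 19.6 and 18.6 to 26.0 and 26.3 FPKM (0.44, limma adjusted p = 0.0398). Leaving out any of 10 of the 18 libraries brought this count of 2 to 1: all 6 RelA(wt) libraries, both of RelA(TA2) 2 h and both of RelA(Ser276Ala) 0 h. By fragments 3 of the 12 rose, with Mcl1, another survival protein, as the third (0.62, limma adjusted p = 0.000242), named after its values were seen.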

How the data were processed

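Poly-dT selected RNA of 18 libraries was sequenced by the authors. Per the labels and the study's methods, base calls came from CASAVA 1.8.2, the authors used TopHat2 2.0.5 (with Bowtie2 2.0.0.7) for alignment against mm10, and Cufflinks 2.0.2 then assembled each library and gave the deposited FPKM of each transcript with its confidence limits. The assembly was made separately in each library, so transcript ends and numbers of pieces differ between libraries.

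Transcripts were placed on genes of the deposited merged annotation by at least 50% exonic overlap and FPKM were summed per gene. A minimum of 1 FPKM in 2 or more libraries left 12362 genes for limma 3.58.1 (R 4.3.3), fitted to log2(FPKM + 0.5) with 9 condition means, 9 residual degrees of freedom, a variance trend and Benjamini-Hochberg adjustment over all of them at 0.05. Fragments were recovered from each FPKM with its confidence limit and were tested the same way as an alternative. Python 3.11.15 did the joins, using numpy 2.4.6 and pandas 2.3.3. Of the recovered counts below 500 from loci with a single transcript, 88.9% to 90.2% per library came within 0.02 of a whole number. Larger counts, which include all values of Ier5 and all values of Ier2 and Ier3 at 1 h, were not checked in this way. Named genes were the members, Rela, up to 4 genes of each list with the smallest adjusted p at 1 h in RelA(wt) cells (2 where none passed), the 5 genes most like each member, and the nearest genes. The members and lists were chosen with earlier results of these data known. The p-values measure only the spread between these libraries.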

Additional observations from a re-analysis of the deposited data

Results flagged for a closer look

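The change of Ier2 from 0 h to 1 h differed between lines by the test of the difference itself. It was lower in RelA(TA2) cells than with RelA(wt) by -2.47 on the log2(FPKM + 0.5) scale (SE 0.43, limma adjusted p = 0.0489). The call was kept under only 5 of 13 alternatives and in 3 of 18 fits with 1 library left out. Both RelA(TA2) libraries at 0 h, at 16.8 and 25.1 FPKM, lay above the RelA(wt) libraries at 8.4 and 9.92 FPKM, and both at 1 h, at 39.6 and 47.9 FPKM, lay below those at 108 and 115 FPKM. The Rela transcript was higher in the same line, at 329 FPKM against 171 FPKM at 0 h, and its part in the difference was not tested.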

How the results depend on the processing

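Of 13 alternatives and 18 left-out libraries, the rises of Ier2 and Ier3 at 1 h in RelA(wt) cells kept direction and call in all. Libraries were left out by FPKM only, so calls made by fragments alone were not checked in this way. For Ier2, recovered fragments gave 1.25 for RelA(TA2) at 1 h against 0 h and -1.02 for RelA(Ser276Ala) against RelA(wt) at 1 h, both now called. With only the compared groups in the fit, calls were lost for Ier2 in RelA(Ser276Ala) at 1 h (2.31, adjusted p = 0.215), in RelA(TA2) against RelA(wt) at 1 h (-1.35, adjusted p = 0.25), which quantile normalization also ended (-1.29, adjusted p = 0.0555), and from 1 h to 2 h in RelA(TA2) (-1.44, adjusted p = 0.134) and RelA(Ser276Ala) (-2.46, adjusted p = 0.153). The change of Ier2 from 0 h to 1 h in RelA(TA2) against RelA(wt) lost its call under 8 of 13 alternatives, with values of -2.52 to -2.40 over all of them. Left-out libraries gave Ier2 0.78 to 1.35 for RelA(TA2) at 1 h against 0 h, -1.48 to -1.21 for RelA(TA2) and -1.49 to -0.38 for RelA(Ser276Ala) against RelA(wt) at 1 h, -0.97 to 0.14 for RelA(TA2) against RelA(Ser276Ala), -0.0049 to 0.22 for RelA(wt) and -0.35 to 0.056 for RelA(Ser276Ala) at 2 h against 0 h, and -0.16 to 0.24 for RelA(Ser276Ala) against RelA(wt) at 2 h, which fragments put at -0.0011. The cause was not tested.

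For Ier3, with only the compared groups calls were lost for RelA(TA2) (1.99, adjusted p = 0.0518) and RelA(Ser276Ala) (1.73, adjusted p = 0.101) at 1 h against 0 h, for RelA(TA2) at 2 h against 0 h (1.36, adjusted p = 0.109) and for RelA(Ser276Ala) against RelA(wt) at 1 h (-0.91, adjusted p = 0.131). Left-out libraries gave Ier3 -1.15 to -0.67 for the last and -0.044 to 0.26 for RelA(Ser276Ala) against RelA(wt) at 2 h. These fits hold fewer libraries.

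For Ier5, fragments brought calls at 1 h against 0 h in RelA(wt) (0.82), RelA(TA2) (1.12) and RelA(Ser276Ala) (1.18) and for RelA(Ser276Ala) against RelA(wt) at 1 h (0.55), which only the compared groups also called (0.56). The rise in RelA(TA2) was called too at a minimum of 5 FPKM (1.04), with median-of-ratios scaling (1.12), with quantile normalization (1.10) and with the highest transcript only (1.04). Left-out libraries gave it 0.95 to 1.13. Ier5 in RelA(Ser276Ala) at 2 h against 0 h turned to 0.020 by median-of-ratios, 0.026 by the highest transcript and 0.32 by fragments; RelA(TA2) against RelA(wt) at 0 h turned to 0.059 by fragments, and RelA(Ser276Ala) against RelA(wt) at 2 h to 0.054 by the highest transcript and 0.33 by fragments. Left-out libraries gave Ier5 -0.20 to 0.48 (RelA(wt)) and -0.18 to 0.15 (RelA(Ser276Ala)) at 2 h against 0 h, -0.59 to 0.079 and -0.16 to 0.40 for RelA(TA2) against RelA(wt) at 0 h and 2 h, -0.19 to 0.48 and -0.18 to 0.17 for RelA(Ser276Ala) at 0 h and 2 h, and -0.48 to 0.082 for the change of RelA(TA2) from 1 h to 2 h.

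By FPKM no pairing of the libraries by replicate number was seen: over 36 pairs of conditions the correlation of deviations was -0.0739 to 0.0991. The check was not made by fragments, where the spread between replicates was smaller, so a weak pairing could be missed. With a replicate block, Ier2 in RelA(TA2) against RelA(wt) at 1 h was -1.35 (adjusted p = 0.0648), and with a replicate block within line -1.40 (adjusted p = 0.0918). The replicate block within line gave Ier3 -0.86 (adjusted p = 0.131) for RelA(Ser276Ala) against RelA(wt) at 1 h and 1.03 (adjusted p = 0.0551) for RelA(wt) at 2 h against 0 h, and Ier5 -0.11 for RelA(TA2) at 2 h and -0.0031 for RelA(Ser276Ala) at 0 h, both against RelA(wt).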
